A study of Mus musculus with 7 samples.

Results

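The 76 genes described here encode nuclear-encoded subunits of the mitochondrial respiratory chain and the ATP synthase, read in conventional type 1 dendritic cells (cDC1) of the mouse lung. Membership was set by the platform symbol of each probe set of the deposited table. It took the symbols that start with Uqcr, Cox4 to Cox8 or Atp5, those that start with Nduf, a letter a, b, c, s or v and a number, and Sdha, Sdhb, Sdhc and Sdhd. The rule gave 76 of 25428 probe sets and left out 4 pseudogenes. Of these, 35 belong by symbol to complex I, 4 to complex II, 7 to complex III, 17 to complex IV and 13 to complex V. No probe set was named for a subunit encoded by mitochondrial DNA, and Uqcrb and Atp5g1 were not analysed here. Ndufab1 of complex I and Cyc1 of complex III, whose symbols fall outside the rule, are counted among the electron carriers below.

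The study asked how a lung tumor alters the transcriptome of the dendritic cells that take up dying tumor cells. All mice were C57/BL6. Control lungs from healthy mice (nLung) gave 4 arrays, and lungs with late KP tumors (KP(l)) gave 3. The KP mice had received 100000 cells of the KP line, made from a primary lung tumor, into the tail vein, and their lungs were taken on day 28. Ages were not given in the sources used here. The tumors thus came from 1 transplanted line that seeded the lung from the blood. Each array held RNA of cDC1 from a pool of 2 to 3 mice, enriched on CD11c beads and then sorted by CD11c, CD103, CD11b, MHC class II and SiglecF, a marker of alveolar macrophages.

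Complexes I and II pass electrons from NADH and succinate to ubiquinone, complex III passes them on to cytochrome c, and complex IV (cytochrome c oxidase) to oxygen. Complexes I, III and IV pump protons across the inner membrane, and complex V (ATP synthase) uses their return flow to make ATP. Dendritic cells at rest rely largely on this route for ATP, and many activated dendritic cells turn towards glycolysis.

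Expression was given on the log2 scale after RMA, which normalizes the arrays to 1 distribution, so that array medians lay between 3.49 and 3.57. The upper quartile divided the arrays into 2 sets that cross the groups, 5.11 to 5.17 in replicates 1 and 2 of both groups and 5.22 to 5.28 in the other 3 arrays. The 11 cDC1 markers had a mean level of 9.52 to 9.78 in nLung and 9.33 to 9.69 in KP(l), and 8 of 11 had a fold change below 0. The 10 alveolar macrophage markers had a mean level of 3.41 to 5.48 in nLung and 3.56 to 6.31 in KP(l), and 9 of 10 had a fold change above 0. The level was high in nLung replicate 1 (5.48) and in KP(l) replicates 1 and 2 (6.31 and 5.55), and Siglecf itself stood at 3.92 to 4.74 in nLung and at 6.74, 3.99 and 4.40 in KP(l). The 6 neutrophil markers stood at 5.89 in KP(l) replicate 1 and at 2.86 to 3.22 in the other arrays. The mean level of the 6 monocyte and macrophage markers ranged from 4.76 to 5.91, and that of the 7 cDC2 markers from 4.58 to 5.09. Single cDC2 markers differed in both directions, with log2 fold changes from -2.22 to 1.38 and a median of 0.49. At an unadjusted p under 0.05 (limma), 2 of the 7 were higher in KP(l) and 2 lower, against 2.62% and 2.24% of all probe sets. The 4 B cell markers stood at 4.03 in KP(l) replicate 1 and at 2.62 to 3.02 in the other arrays. The mean levels of the T and NK cell, epithelial and endothelial lists lay between 3.35 and 5.28, and of the 7 proliferation genes between 5.84 and 6.40. The part of these markers in the results below was not tested. As the RNA is that of a sorted population, fewer cells with a transcript and less of it per cell cannot be told apart.

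No subunit passed the test, and the median log2 fold changes of the 5 complexes lay between 0.01 and 0.15. Sdhb of complex II had the highest value and Cox6b2 of complex IV the lowest. None of the 76 reached an adjusted p of 0.05 or less with a 2-fold change, against a share of 0% over all probe sets (limma, Benjamini-Hochberg over all 25428). SAM, the procedure of the study, was rewritten here and also called 0 probe sets at a false discovery rate of 5% and a 2-fold change, with a lowest false discovery rate of 0.152. The paper, with its own SAM run, did report differentially expressed transcripts at these thresholds. The rewritten procedure thus did not reproduce its list, and the cause was not tested. The smallest adjusted p of a subunit was 0.839, that of Cox6b2. At an unadjusted p under 0.05, 5 subunits lay higher in KP(l), where 2.62% of all probe sets did, and 1 lay lower, where 2.24% did. The 4 nLung and 3 KP(l) values did not overlap for 4 subunits that were higher (Sdhb, Ndufa10, Ndufb5 and Ndufc2; 2.12% of all probe sets) and for 1 that was lower (Cox6b2; 1.72%). A change of 2-fold or more, whatever its p, was seen for Sdhb and Cox6b2, against 1.84% of all probe sets.

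The log2 fold changes ran from -2.13 to 1.17, with a median of 0.10, beside a median of 0.02 for all probe sets and of 0.00 for the 12714 of them above the median mean level. They lay above 0 for 50 subunits and below 0 for 26, which is 65.8%, against 54.6% of all probe sets and 50.9% of those above the median mean. The medians were 0.06 for complex I (21 of 35 above 0), 0.01 for complex II (2 of 4), 0.07 for complex III (6 of 7), 0.06 for complex IV (11 of 17) and 0.15 for complex V (10 of 13). That of complex IV was -0.03 without KP(l) replicate 1 and 0.15 without nLung replicate 1. The subunits whose 7-array mean lay between 8 and 10 had the highest median of 5 level classes, 0.26, with 21 of 27 above 0. Of all 923 probe sets of that range 458 were above 0, with a median of 0.00. The class median was 0.40 in replicates 1 and 2 and 0.03 in the other arrays. The median was 0.13 for means of 6 to 8 (all probe sets -0.01), 0.13 for 10 to 13 (-0.04) and 0.11 for 0 to 4 (0.03). For the 17 with a mean between 4 and 6 the median was -0.04 (all probe sets 0.00). These level classes were drawn after the values were seen.

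**Figure D1:**
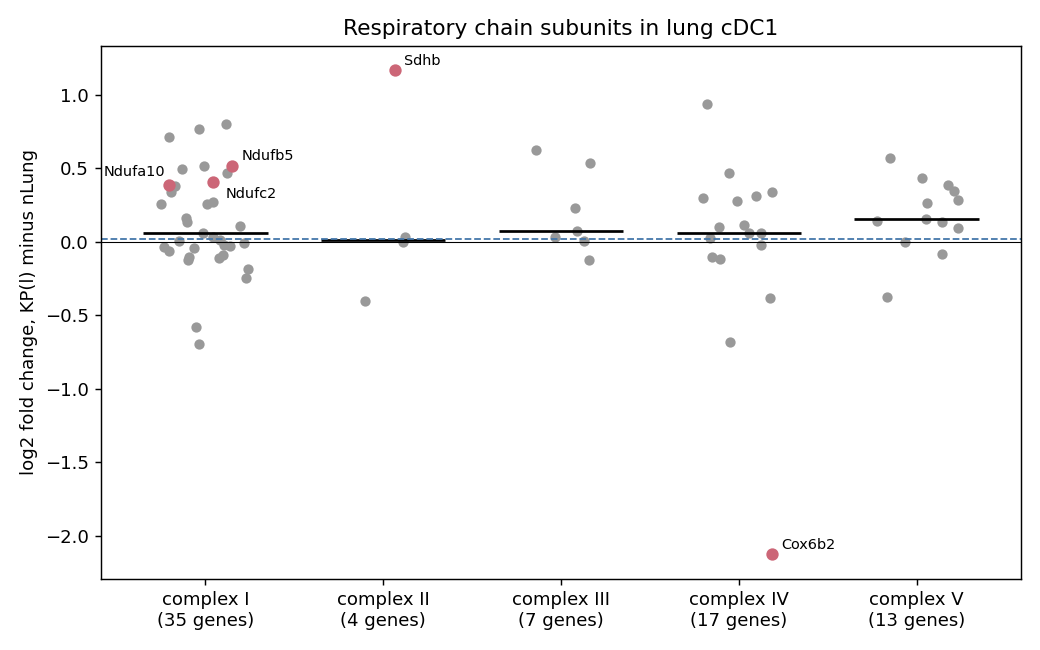
Log2 fold change, KP(l) minus nLung (vertical axis), of each of the 76 subunit genes by complex, with the median of each complex as a black bar and that of all probe sets as a dashed line. Red points are genes whose 2 groups of arrays do not overlap. Most genes lie near 0, with Sdhb at 1.17 and Cox6b2 at -2.13.

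The subunits also varied among the arrays of each group. Each subunit was set against its own mean over the 7 arrays, and the median of these deviations was taken per array. It was 0.01, -0.16, -0.12 and 0.15 in nLung replicates 1 to 4 and 0.10, 0.21 and -0.07 in the KP(l) replicates. Thus the subunits were lowest in nLung replicates 2 and 3 and highest in KP(l) replicate 2, the only KP(l) array above the nLung range. KP(l) replicates 1 and 3 lay within that range, with KP(l) replicate 1 below nLung replicate 4. In nLung, 39, 24, 21 and 54 of the 76 genes were above their own mean, and in KP(l) 50, 57 and 28. KP(l) replicate 2 held the highest value of 23 genes, and nLung replicate 2 the lowest value of 23. The mean level of the alveolar macrophage markers was 5.48, 4.38, 3.41 and 3.80 in nLung replicates 1 to 4 and 6.31, 5.55 and 3.56 in the KP(l) replicates, and its part in these deviations was not tested. Without KP(l) replicate 3 the median log2 fold change of the 76 genes was 0.23, and it was 0.04 without KP(l) replicate 2 and 0.04 without nLung replicate 3.

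**Figure D2:**
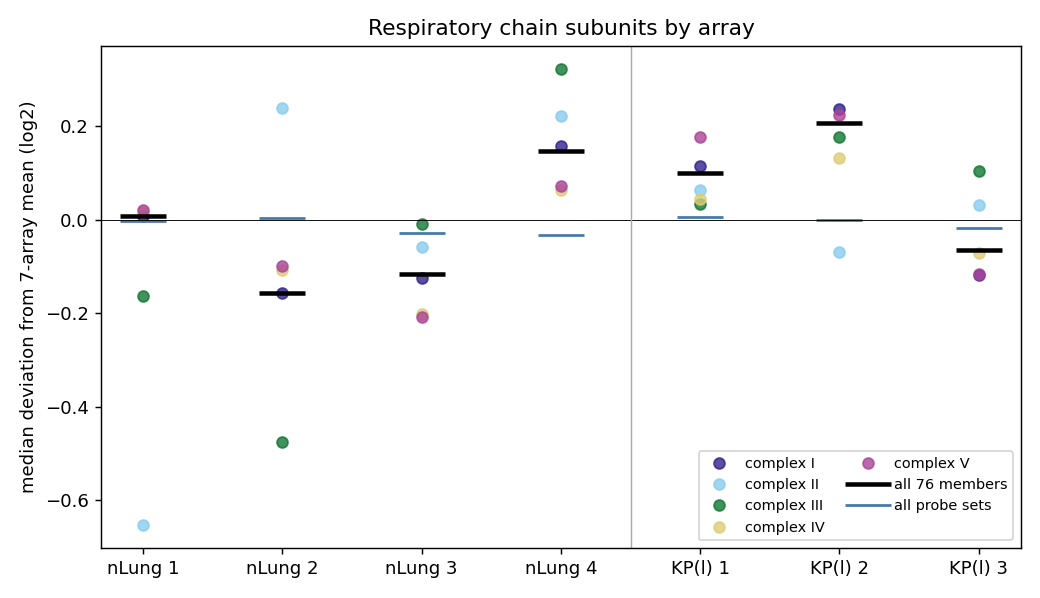
Median deviation of the subunit genes from their own 7-array mean (vertical axis, log2) in each array, for each complex (coloured points), for all 76 genes (black bars) and for all probe sets (blue bars). The black bars of nLung 4, KP(l) 1 and KP(l) 2 lie at 0.15, 0.10 and 0.21 and those of the other arrays between -0.16 and 0.01.

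The 2 sets of arrays gave different answers for the group as a whole. In replicates 1 and 2 the median difference between KP(l) and nLung was 0.25 over the subunits and 0.00 over all probe sets. In the other 3 arrays, KP(l) replicate 3 against nLung replicates 3 and 4, it was -0.02 over the subunits and 0.01 over all probe sets. The 2 medians lay farthest apart for complex III (0.55 and -0.07), complex V (0.50 and 0.01) and complex I (0.25 and -0.14), and was not tested. Of the 76 genes, 20 were higher in KP(l) in both sets, where 27.2% of all probe sets were, and 9 were lower in both, where 22% were. All 6 genes with an unadjusted p under 0.05 were among them. Ndufb2, an accessory subunit of complex I, differed by 1.09 in replicates 1 and 2 and by -1.85 in the other set.

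**Figure D3:**
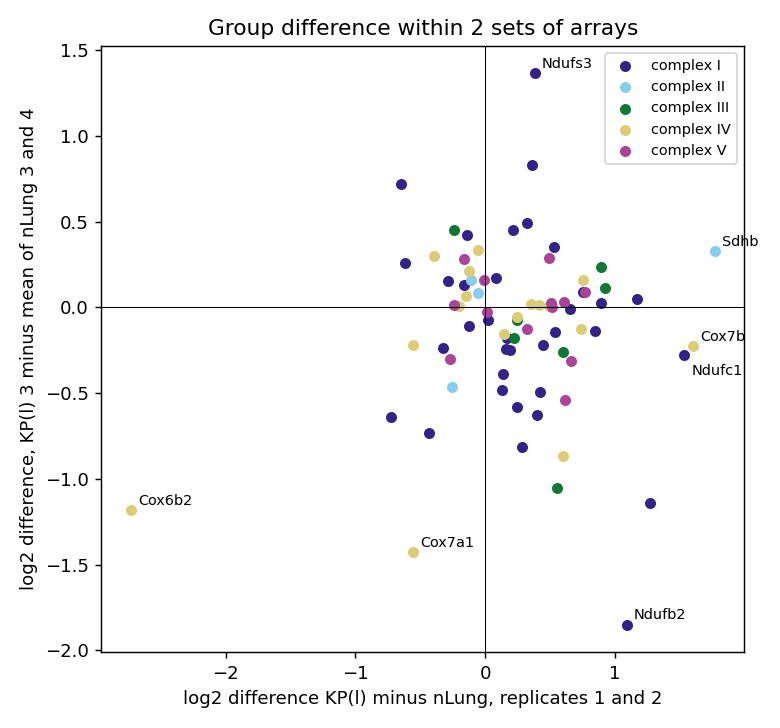
Difference between KP(l) and nLung (log2) of each subunit gene in replicates 1 and 2 (horizontal axis) and in the other 3 arrays (vertical axis), coloured by complex. Sdhb (1.77 and 0.33) and Cox6b2 (-2.73 and -1.18) lie far from 0 along the horizontal axis with the same sign in both sets, and Ndufb2 (1.09 and -1.85) has opposite signs.

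Complex I takes electrons from NADH in its N module, hands them to ubiquinone in the Q module and pumps protons in its membrane arm. When its genes were divided in this way, after the values were seen, the 10 genes of the N module had a median log2 fold change of -0.03 with 3 above 0, the 4 of the Q module 0.26 with 3 above 0, and the 19 of the membrane arm and its borders 0.13 with 13 above 0. All 4 complex I genes with an unadjusted p under 0.05 were accessory subunits of the last group. Ndufa10 stood at 8.04, 7.83, 8.07 and 7.75 in nLung and at 8.41, 8.11 and 8.40 in KP(l). Its 3 KP(l) values were above all nLung values, by a narrow margin in KP(l) replicate 2. The log2 fold change was 0.38 (SE 0.13, adjusted p = 0.912, limma with Benjamini-Hochberg).

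Ndufb5 was 8.19, 7.69, 8.12 and 7.83 in nLung and 8.21, 8.40 and 8.81 in KP(l), which gave a log2 fold change of 0.51 (SE 0.19). KP(l) replicate 1 lay only just above nLung replicate 1. Ndufc2 was 8.71, 8.46, 8.92 and 9.05 in nLung and 9.06, 9.17 and 9.33 in KP(l), which gave a log2 fold change of 0.41 (SE 0.16). Here nLung replicate 4 and KP(l) replicate 1 almost touched. Ndufa8 was 7.18, 7.07, 7.23 and 7.48 in nLung and 8.06, 7.70 and 7.44 in KP(l), with a log2 fold change of 0.50 (SE 0.17). Its groups overlapped, since KP(l) replicate 3 lay below nLung replicate 4, and the difference was 0.76 in replicates 1 and 2 but 0.09 in the other arrays. The adjusted p of these 3 genes was also 0.912 (limma, Benjamini-Hochberg).

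**Figure D4:**
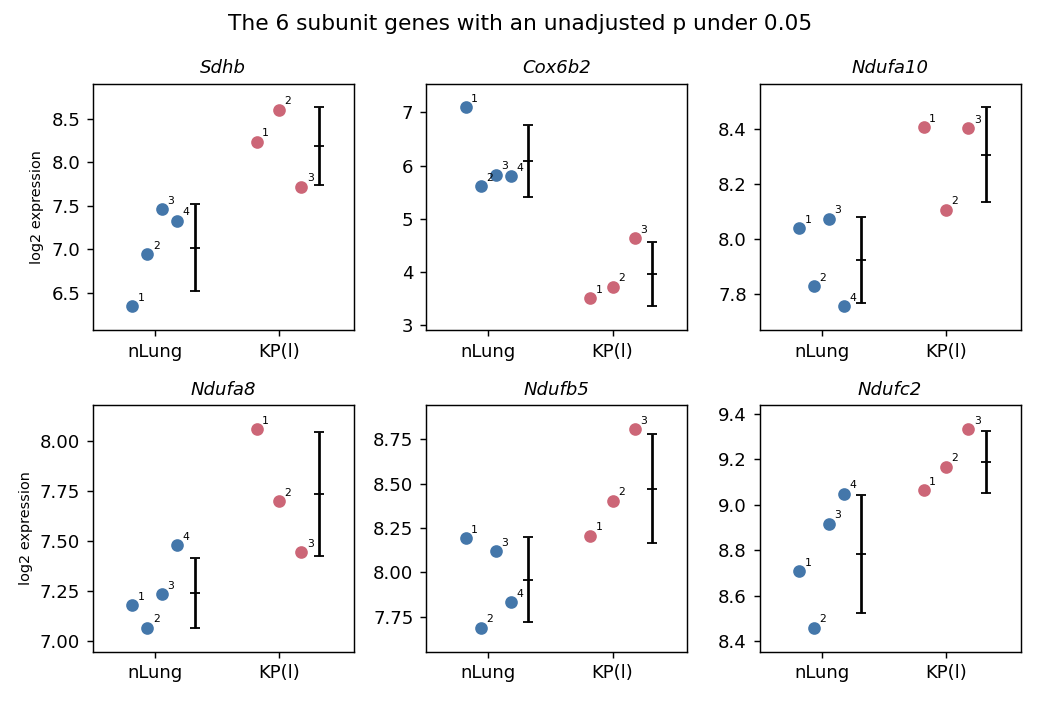
Log2 expression (vertical axes, on a scale of its own for each gene) of the 6 subunit genes with an unadjusted p under 0.05 in each nLung and KP(l) array, numbered by replicate, with mean and SD beside the points. In all but Ndufa8 the groups do not overlap.

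The core subunits that carry the electrons of complex I showed no common direction. Ndufv1, which binds NADH and FMN, had a log2 fold change of -0.11 (SE 0.28), and Ndufs1, which holds several iron-sulfur clusters, one of -0.04 (SE 0.27). Ndufv2, with 1 further cluster of the N module, was at 0.34 (SE 0.22). Ndufs7 and Ndufs8 carry the last clusters before ubiquinone, with log2 fold changes of -0.58 (SE 0.40) and 0.52 (SE 0.29). Ndufs7 was at -0.16 without KP(l) replicate 1 and -1.01 without KP(l) replicate 2, and Ndufs8 at 0.29 without KP(l) replicate 2 and 0.30 without nLung replicate 1. Ndufs7 was 6.73, 6.59, 6.57 and 7.29 in nLung and 5.39, 7.07 and 6.20 in KP(l), so that KP(l) replicate 1 was far below the rest. Ndufs8 had the same value of 7.43 in 3 arrays, a trait of the deposited table shared by 7 other subunits, and KP(l) replicate 2 was highest at 8.14. Ndufs3, a Q module core subunit without a cofactor, was 3.35 to 4.33 in nLung and 3.57 to 5.17 in KP(l), where replicate 1 was the lowest, with a log2 fold change of 0.77 (SE 0.43). Among the lower genes, Ndufb11 of the membrane arm had -0.70 (SE 0.59), with a spread in nLung from 3.30 to 5.94 that spanned all KP(l) values.

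Complex II, succinate dehydrogenase, also serves the TCA cycle and has 4 subunits. Sdhb, the iron-sulfur subunit that links the flavoprotein to ubiquinone, had a log2 fold change of 1.17, the highest of the 76 genes. It stood at 6.35, 6.95, 7.46 and 7.33 in nLung and at 8.24, 8.60 and 7.72 in KP(l). All KP(l) values were above all nLung values, with KP(l) replicate 3 nearest to the controls. The change was 2.24-fold (SE of the log2 fold change 0.32, adjusted p = 0.912, limma with Benjamini-Hochberg), and 0.94 to 1.40 on the log2 scale when any 1 array was left out. It was 1.77 in replicates 1 and 2 and 0.33 in the other arrays.

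The other subunits of complex II had log2 fold changes between -0.40 and 0.03. Sdha, the flavoprotein that oxidizes succinate, had a log2 fold change of 0.00 in size (SE 0.09), with all arrays between 8.31 and 8.48. The membrane anchors Sdhc and Sdhd stood at -0.40 (SE 0.46) and 0.03 (SE 0.33). Sdhc ranged from 5.85 to 7.79 in nLung and from 6.44 to 6.82 in KP(l), so that the KP(l) values lay within the control range. The median of the 4 genes ran from -0.12 to 0.10 when single arrays were left out.

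The genes of the respiratory chain lie on many chromosomes, and their promoters are known for sites of NRF1, of ETS factors such as GABP, and of YY1. Windows from 250 bases before to 50 bases after the start were taken from RefSeq (GRCm38.p6), which held an entry for 62 of the 76 genes, and were searched on both strands for 3 exact words. The NRF1 word (GCGCA and GCGC with any 1 base between) was found for 14 genes (22.6%), against 5.19% of all 27025 genes with a window and 7.17% of the 17491 protein-coding ones. CCGGAAG (ETS) was found for 16 genes (25.8%), against 9.93% and 12.94%. AAGATGGC (YY1) was found for 9 genes (14.5%), against 3.19% and 3.57%. At least 1 of the 3 was found for 33 genes (53.2%), against 16.4% and 21%. A match describes the letters of the window and not a bound site. Of the 6 genes with an unadjusted p under 0.05, Sdhb held the ETS word and Ndufa8 the NRF1 word, and none of the 3 was found for Ndufa10, Ndufb5, Ndufc2 and Cox6b2. Shown in the direction of the gene are the window of Sdhb (chr4:140961021-140961320, plus strand), the highest gene of the set, and that of Cox6a1 (chr5:115348909-115349208, minus strand), a complex IV gene that held both NRF1 and ETS words. Capitals mark the words.
Sdhb: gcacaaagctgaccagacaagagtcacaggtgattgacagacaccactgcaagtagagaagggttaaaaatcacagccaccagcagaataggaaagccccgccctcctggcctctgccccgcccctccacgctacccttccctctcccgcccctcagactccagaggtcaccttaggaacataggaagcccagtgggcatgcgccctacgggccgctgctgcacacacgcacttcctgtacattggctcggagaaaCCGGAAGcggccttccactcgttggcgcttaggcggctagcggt
Cox6a1: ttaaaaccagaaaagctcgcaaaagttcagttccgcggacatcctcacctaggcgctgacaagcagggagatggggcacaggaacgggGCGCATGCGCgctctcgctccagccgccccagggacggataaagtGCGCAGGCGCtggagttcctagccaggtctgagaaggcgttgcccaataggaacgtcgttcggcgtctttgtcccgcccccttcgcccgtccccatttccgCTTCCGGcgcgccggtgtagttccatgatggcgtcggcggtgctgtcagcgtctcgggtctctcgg

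Complex III, cytochrome bc1, had 6 of 7 genes above 0 and none with an unadjusted p under 0.05, and its median of 0.07 became -0.02 without nLung replicate 2. The highest was Uqcrc1, a core subunit on the matrix side, at 6.45, 6.89, 6.60 and 7.40 in nLung and 7.06, 8.08 and 7.24 in KP(l). KP(l) replicate 2 stood above the other arrays, and nLung replicate 4 lay above the remaining KP(l) values. Its log2 fold change was 0.62 (SE 0.32, adjusted p = 0.912, limma with Benjamini-Hochberg). The partner core subunit Uqcrc2 was at 0.00 (SE 0.28) and the Rieske iron-sulfur protein Uqcrfs1, which oxidizes ubiquinol, at 0.07 (SE 0.15). Of the small subunits, Uqcr11 was at 0.54 (SE 0.46), with nLung replicate 1 at 7.13 and the other arrays between 8.20 and 9.12. Uqcr10 was at -0.12 (SE 0.36), and its difference was 0.55 in replicates 1 and 2 and -1.05 in the other arrays.

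Complex IV contains several subunits that exist as a common form and as forms restricted to muscle, testis or lung. In each of these families the common form had a log2 fold change above 0, which did not hold for Cox6b1 and Cox7b when single arrays were left out, and none passed the test. Cox6a1, a common subunit, was 11.12, 11.04, 11.22 and 11.42 in nLung and 11.62, 11.53 and 11.33 in KP(l), so that KP(l) replicate 3 lay below nLung replicate 4. Its log2 fold change was 0.29 (SE 0.13, adjusted p = 0.912, limma with Benjamini-Hochberg). Cox4i1, the common form of the regulatory subunit IV, was at 0.27 (SE 0.18), Cox7a2 at 0.34 (SE 0.31), Cox8a at 0.47 (SE 0.29) and Cox6b1 at 0.06 (SE 0.41). The groups of all 4 overlapped. Cox6b1 was at -0.15 without nLung replicate 2, -0.23 without KP(l) replicate 2 and 0.43 without KP(l) replicate 3, and Cox7a2 was at 0.06 without nLung replicate 2. Cox7b was at 0.94 (SE 0.74), which rested on 1 array, as KP(l) replicate 1 stood at 6.72 and the others between 3.51 and 4.12, and it was -0.06 without that array. Of the subunits without tissue forms, Cox5b, which lies on the matrix side of the enzyme, was at -0.38 (SE 0.22). Its nLung arrays stood at 5.63, 5.75, 4.99 and 5.64 and its KP(l) arrays at 5.38, 4.88 and 5.09, so that nLung replicate 3 lay among the KP(l) values.

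Cox6b2, the form of subunit VIb known from testis, was the lowest of the 76 genes in KP(l). It stood at 7.09, 5.62, 5.83 and 5.81 in nLung and at 3.52, 3.73 and 4.64 in KP(l). All KP(l) values were below all nLung values, and nLung replicate 1 was well above its group. The log2 fold change was -2.13 (SE 0.43, unadjusted p = 0.00201, adjusted p = 0.839, limma with Benjamini-Hochberg), a 4.37-fold lower level. It lay between -2.47 and -1.79 when any 1 array was left out, and was -2.73 in replicates 1 and 2 and -1.18 in the other arrays. Its common counterpart Cox6b1 was 8.70, 7.81, 8.16 and 9.04 in nLung and 8.67, 9.05 and 7.73 in KP(l), so that the groups overlapped widely.

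The windows of this pair are shown because the 2 forms of 1 subunit stood apart in the data. Both genes lie on chromosome 7 and on the minus strand, Cox6b1 at chr7:30626065-30626364 and Cox6b2 at chr7:4753045-4753344 (GRCm38.p6, RefSeq). The Cox6b1 window holds an ETS word, in capitals and on the opposite strand, and none of the 3 words was found in that of Cox6b2.
Cox6b1: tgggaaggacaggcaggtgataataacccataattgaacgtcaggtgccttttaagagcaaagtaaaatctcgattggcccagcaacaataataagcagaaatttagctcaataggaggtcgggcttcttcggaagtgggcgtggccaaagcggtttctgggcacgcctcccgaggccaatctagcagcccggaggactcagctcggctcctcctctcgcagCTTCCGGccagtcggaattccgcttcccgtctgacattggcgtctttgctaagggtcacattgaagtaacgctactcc
Cox6b2: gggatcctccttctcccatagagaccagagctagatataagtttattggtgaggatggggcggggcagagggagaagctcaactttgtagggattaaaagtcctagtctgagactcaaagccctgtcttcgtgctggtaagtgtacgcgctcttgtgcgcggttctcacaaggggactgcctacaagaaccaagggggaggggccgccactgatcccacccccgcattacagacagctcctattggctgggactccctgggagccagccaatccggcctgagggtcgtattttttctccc

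The other restricted forms varied little or without order. Cox4i2, known from lung and induced by low oxygen, was at -0.12 (SE 0.10) and had the same value of 4.41 in 4 of 7 arrays. The muscle forms Cox6a2 and Cox8b were at 0.06 (SE 0.17) and 0.12 (SE 0.12), and the testis forms Cox7b2 and Cox8c at -0.03 (SE 0.17) and 0.10 (SE 0.10). Cox8b, Cox7b2 and Cox8c had 7-array means of 2.58, 1.66 and 2.54, below 3.54, the median mean of all probe sets. They held the same value in 4, 3 and 3 arrays. Small differences are hard to measure at such levels. The muscle form Cox7a1 had the largest spread of all subunits, an SD of 1.99 within groups. It stood at 8.54, 3.80, 5.18 and 5.18 in nLung and at 3.98, 7.25 and 3.76 in KP(l), high in 1 array of each group. Cox7a2l was at -0.10 (SE 0.38). Ndufa4, which carries a complex I symbol but is a subunit of complex IV, was at 0.26 (SE 0.22), and its relative Ndufa4l2, known as a hypoxia-induced gene, at 0.16 (SE 0.22). The 7-array mean of Ndufa4l2 was 3.27, also below 3.54. When Cox6b2 and the 7 other restricted forms were set aside, 46 of 68 genes were above 0, with a median of 0.12. This division was made after the values were seen.

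**Figure D5:**
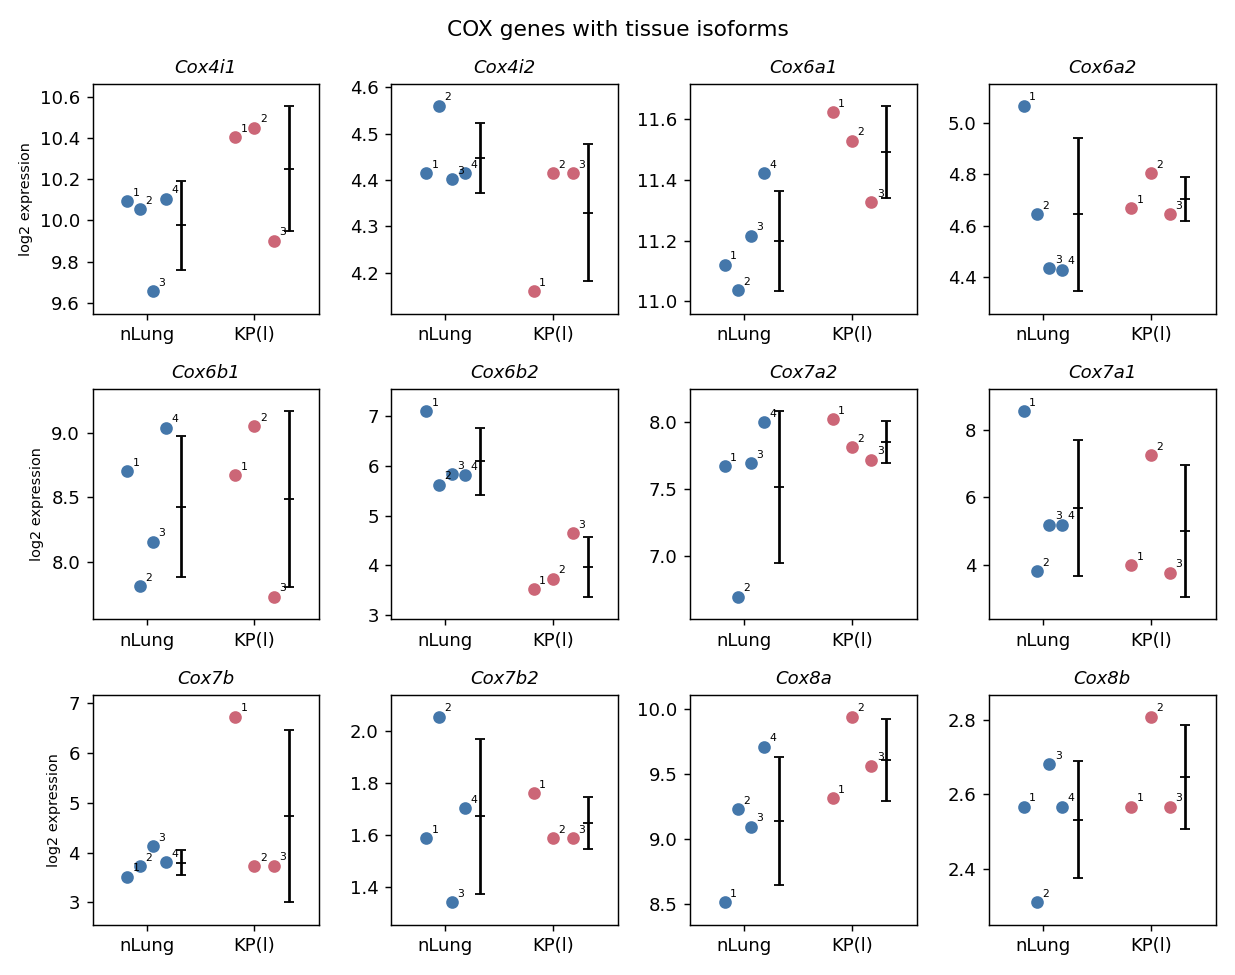
Log2 expression (vertical axes, on a scale of its own for each gene) of 12 complex IV genes from families with tissue forms in each nLung and KP(l) array, numbered by replicate, with mean and SD beside the points. In Cox6b2 alone of these 12 the groups do not overlap.

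Complex V had the highest median of the complexes, 0.15, with 10 of 13 genes above 0 and none with an unadjusted p under 0.05. The median was 0.31 without nLung replicate 4 and 0.32 without KP(l) replicate 3. Atp5a1, the alpha subunit of the catalytic head, was 9.49, 8.75, 9.04 and 9.15 in nLung and 9.55, 9.68 and 9.39 in KP(l). KP(l) replicate 3 lay below nLung replicate 1, so that the groups overlapped by this pair alone. The log2 fold change was 0.43 (SE 0.18, unadjusted p = 0.0518, adjusted p = 0.912, limma with Benjamini-Hochberg), and it was 0.50 in replicates 1 and 2 and 0.29 in the other arrays. The beta subunit Atp5b, which holds the catalytic sites, was at 0.09 (SE 0.12).

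Atp5g3, a form of subunit c of the rotating ring, was 8.77, 8.42, 8.49 and 8.71 in nLung and 9.23, 8.97 and 8.63 in KP(l), with KP(l) replicate 3 inside the control range. Its log2 fold change was 0.34 (SE 0.17). The central stalk was divided, with the gamma subunit Atp5c1 at -0.38 (SE 0.30), the delta subunit Atp5d at 0.28 (SE 0.24) and the epsilon subunit Atp5e at 0.26 (SE 0.25). Atp5d had the same value of 5.98 in 4 arrays. Atp5o, which joins the head to the peripheral stalk, was at -0.08 (SE 0.16).

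The genes around the chain were read from lists of the pathway. Of 51 assembly factors, 26 were above 0 with a median of 0.01, and 3 lay higher and none lower with an unadjusted p under 0.05, against 2.62% and 2.24% of all probe sets. These were Cox14 (0.60, SE 0.23), which aids the synthesis of a complex IV subunit, the copper chaperone Cox17 (0.61, SE 0.25), and Lyrm7 (0.29, SE 0.12), which acts in the insertion of the Rieske protein. Lyrm7 stood at only 1.98 to 2.56 over the arrays, below 3.54, the median mean level of all probe sets. Of 21 electron carriers and feeders, 10 were above 0 with a median of -0.01, and 2 were higher at that p, Coq7 of ubiquinone synthesis (0.25, SE 0.09) and Etfa, which brings electrons from fatty acid oxidation (0.72, SE 0.29). Both medians lay below that of all probe sets.

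The TCA cycle and pyruvate dehydrogenase genes, which supply NADH and succinate, had 16 of 21 above 0 and a median of 0.13. In replicates 1 and 2 the median was 0.32, and in the other arrays -0.12. Mdh2, mitochondrial malate dehydrogenase, was 8.67, 8.63, 8.49 and 9.002 in nLung and 9.54, 9.78 and 9.41 in KP(l), and its groups did not overlap. Its log2 fold change of 0.88 (SE 0.15, adjusted p = 0.735, limma with Benjamini-Hochberg) was of the same sign in both sets of arrays, 1.01 and 0.66. Cs, citrate synthase, was 7.92, 8.54, 8.22 and 8.25 in nLung and 8.79, 8.55 and 8.95 in KP(l), which gave a log2 fold change of 0.53 (SE 0.17). Its groups were parted by less than 0.01, as nLung replicate 2 and KP(l) replicate 2 were almost equal. At an unadjusted p under 0.05 (limma), 2 of the 21 were higher and 0 lower, against 2.62% and 2.24% of all probe sets. The groups did not overlap for 2 higher and 0 lower genes, against 2.12% and 1.72%.

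The 19 regulators of mitochondrial biogenesis differed from the subunits in direction, with 7 above 0 and a median of -0.09, and the difference between the lists was not tested. Tfam, which packages and transcribes mitochondrial DNA, was 3.36, 3.25, 3.41 and 3.61 in nLung and 2.87, 2.95 and 2.43 in KP(l), without overlap and below the median of all probe sets in most arrays. Its log2 fold change was -0.65 (SE 0.16, adjusted p = 0.912, limma with Benjamini-Hochberg). Pprc1, a coactivator of the PGC-1 family, was at -0.34 (SE 0.12), Nrf1 at -0.54 (SE 0.21) and Polg2, of the mitochondrial DNA polymerase, at -0.85 (SE 0.34). Yy1 (0.41, SE 0.14) and Ssbp1, which binds single-stranded mitochondrial DNA (0.40, SE 0.15), lay higher, each with an unadjusted p under 0.05. At that p (limma), 2 of the 19 were higher and 4 lower, against 2.62% and 2.24% of all probe sets. The groups did not overlap for 2 higher and 2 lower regulators, against 2.12% and 1.72%. Of the 8 mitochondrial carriers and uncouplers, 6 were above 0 with a median of 0.25. Slc25a3, the phosphate carrier that feeds the ATP synthase, was 9.29 to 9.47 in nLung and 9.54 to 9.70 in KP(l), without overlap. It was the only one of the 8 without overlap, against 2.12% of all probe sets higher and 1.72% lower. Vdac2, a channel of the outer membrane, was at 0.62 (SE 0.34).

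The mitochondrial ribosome makes the subunits that mitochondrial DNA encodes, and its 76 measured protein genes had a median of 0.17 with 47 above 0. With an unadjusted p under 0.05 there were 4 higher and 2 lower genes, against 2.62% and 2.24% of all probe sets. Mrpl54 was at 0.71 (SE 0.19) and Mrps10 at 0.48 (SE 0.12), both without overlap, and Mrps18b, which was lower, was at -1.39 (SE 0.43), with groups that met at 1 value. Of the 76 genes, 2 were higher and 0 lower without overlap, against 2.12% and 1.72% of all probe sets. As for the respiratory chain, the median was higher in replicates 1 and 2 (0.27) than in the other arrays (-0.04).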

How the data were processed

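The deposited table holds log2 expression values of 25428 probe sets on 7 Affymetrix Mouse Gene 2.0 ST arrays, made by the authors with RMA, which corrects background, quantile-normalizes and summarizes by median polish (affy, R 3.4.2, Bioconductor 3.5). Probe sets followed version 22.0.0 of BrainArray's Entrez definitions. The methods name Affymetrix 3'IVT labeling, and the labels an amplification by NuGEN. RMA evens out any shift common to all genes, and its summary can give several arrays the same value, as it did for 19 of the 76 subunits. Precision is limited by the small number of arrays.

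The groups were compared over all probe sets with limma 3.58.1 (R 4.3.3; lmFit and eBayes, two-sided), with Benjamini-Hochberg adjustment. SAM was rewritten with all 35 splits of the arrays, and both were tested on simulated data. Groups came from the sample titles, and the replicates are separate pools. Platform symbols named the genes, and promoters came from RefSeq. Named subunits were, by rule, the 2 with the smallest p per complex and direction, those at an unadjusted p under 0.05 or without overlap, core subunits, families of tissue forms, and the 3 with the largest spread, and of other lists the 2 with the smallest p. Other genes were named after their values were seen. The members and lists were chosen with earlier results of these data known. Alternatives were an intensity trend, array weights, centring, repeated quantile normalization, a filter on the mean, blocks, SAM, fold thresholds and leaving out each array. Python 3.11.15 and matplotlib 3.10.9 made the figures.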

Additional observations from a re-analysis of the deposited data

Results flagged for a closer look

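Of the 45 named subunit genes, 6 had 1 of the 4 nLung arrays far from the other 3, with a gap above Dixon's critical value. The screen did not cover the remaining subunits, the KP(l) arrays or the other probe sets. About 1 in 20 groups would be marked in this way by chance. Ndufa4 was lowest in nLung replicate 2 at 8.70, while the other nLung arrays lay between 9.38 and 9.45. Cox6b2 was highest in nLung replicate 1 at 7.09, with the others between 5.62 and 5.83, and its log2 fold change without this array was -1.79. Cox5b and Cox4i1 were both lowest in nLung replicate 3, at 4.99 and 9.66. Cox4i2 was highest in nLung replicate 2 at 4.56, with a range of the group that was small. Atp5d was lowest in nLung replicate 1 at 5.27, and the other 3 nLung arrays had 1 value, 5.98.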

How the results depend on the processing

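No subunit and no probe set was called by limma under any alternative or by SAM as rewritten here, and the lowest adjusted p of a subunit over the limma fits was 0.346. Of all 45 named subunits, 30 kept their direction under every alternative and 15 did not. All 15 changed sign with at least 1 array left out. Of these, 11 were Ndufv1, Ndufs1, Ndufb2, Uqcrfs1, Uqcrc2, Cox6a2, Cox6b1, Cox7a1, Cox7a2l, Cox7b and Cox7b2. Of the 21 with the smallest p in each complex and direction, at an unadjusted p under 0.05 or without overlap, 17 kept their direction throughout. The other 4 are given next. Sdhd (0.03) became -0.06 without nLung replicate 1, -0.22 without nLung replicate 3 and -0.05 without KP(l) replicate 1, in a range up to 0.20 over single arrays left out. Sdha (0.00 in size, below 0) became 0.022 with array weights, and ran from -0.055 to 0.035 over single arrays left out, above 0 without nLung replicate 1, KP(l) replicate 1 or KP(l) replicate 2. Uqcr10 (-0.12) became 0.10 without nLung replicate 4 and 0.13 without KP(l) replicate 3, in a range from -0.38. Atp5o (-0.08) ran from -0.18 to 0.025, the latter without nLung replicate 1. The cause was not tested. The 6 subunits with an unadjusted p under 0.05 were 3 without nLung replicate 2 and 10 without nLung replicate 4. The share of all probe sets at that p was not computed in these fits, so the counts are not read as a trait of the subunits. Leaving out single arrays, the median of complex I ran from 0.0042 (without KP(l) replicate 2) to 0.24 and that of complex V from 0.11 to 0.32, the highest of both without KP(l) replicate 3.

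The sample titles do not say whether equal replicate numbers pair the samples. The deviations of samples with the same number correlated across genes at 0.08, 0.02 and 0.19. KP(l) replicates 1 and 2 correlated best with another number (0.09 and 0.04), and KP(l) replicate 3 with its own. These deviations are taken from group means, so those of a group depend on each other and cannot settle the pairing. With the replicate number as a block, nLung replicate 4, which has no KP(l) array of its number, did not contribute to the difference. In that fit 12 subunits had an unadjusted p under 0.05 (limma), the median of complex V was 0.31 and Uqcr10 was at 0.10. Leaving out nLung replicate 4 without a block gave the same 0.31 and 0.10, so these values are not credited to the block. The share of all probe sets at that p was not computed with the block, so the count of 12 is not read as a trait of the subunits. The probe sets give no depth, and 5 subunits had a mean below 3.54, the median of all probe sets, where small differences are hard to measure.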
